A study of Mus musculus with 10 samples.

Results

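The genes described here are 47 germline and meiosis genes, taken by name from the 18901 genes that the RNA-sequencing table lists. They were chosen to ask which germline genes are on in mouse induced pluripotent stem (iPS) cells and remain off in pre-iPS cells, a line whose reprogramming halted before the iPS state. The members were thus selected on their levels in iPS and pre-iPS cells, which are given as a description, without a test. All 47 genes were listed, and 45 passed the filter used for testing (2 or more libraries with a value of 10 or above). *Spo11* and *Tdrd6* did not pass.

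The 10 libraries come from 5 lines of one strain, a cross of mf1 and 129, each with 2 libraries. Oct4-GFP MEF are embryonic fibroblasts with a fluorescent reporter at the *Oct4* locus, sampled at passages 2 and 4 in DMEM with 10% FCS. The pre-iPS line, the control iPS line and the Netrin-1-derived iPS clones 1 and 2 were sampled at passages 5 and 25, with iPS cells in KSR and LIF medium. The iPS lines were made from Oct4-GFP MEF with retroviruses for *Oct4*, *Sox2*, *Klf4* and *c-Myc*, and both clones were derived with recombinant Netrin-1. Each reprogrammed group is 1 line, and MEF are a fibroblast culture, not a clone. The 2 libraries of a line are passages of it. Every p therefore compares these lines and passages, not independently derived clones.

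The depth was 38110410 to 52946856 reads on genes. Values are those deposited, reads brought to a common library size, in which 1 read is worth 0.888 to 1.18. The summed level of 12 fibroblast markers in the pre-iPS and iPS libraries was 0.757 to 1.4% of its mean in MEF. The lines also differ in their sex chromosomes. Reads of *Xist* numbered 140 to 328 per library in the control and clone 1, 15713 to 22992 in clone 2 and pre-iPS cells and 44538 to 50201 in MEF. Each of 4 Y-linked genes (*Uty*, *Eif2s3y*, *Kdm5d* and *Ddx3y*) had 753 to 2814, 0 to 7 and 64 to 367 reads in the same groups. In bulk RNA, fewer cells that express a gene and less RNA per cell cannot be told apart.

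Germ cells use a set of genes that body cells keep silent. In meiosis, cohesin rings hold sister chromatids together. Homologous chromosomes are broken and repaired by recombination enzymes and zipped together by the synaptonemal complex. The piRNA pathway, built on PIWI and Tudor-domain proteins, silences transposons in the same cells. Many of these genes have CpG-rich promoters that DNA methylation closes in body cells, and in pluripotent cells a Polycomb complex, PRC1.6, also represses them. Its subunits MGA and MAX bind the E-box, and its subunit E2F6 binds E2F-type sites.

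Promoters from RefSeq (GRCm38.p6, from 250 bases before the start of the gene to 50 bases after it) were found for 42 of the 47 genes (not for *Tex11*, *Tex15*, *Tdrd6*, *Piwil2* and *Spo11*) and searched on both strands for 2 motifs, the E-box CACGTG and the E2F-type motif TCCCGC. The E-box was in 15 of 42 promoters (35.7%), in 9.62% of 12309 promoters of tested genes and in 7.15% of all 32851 promoters in the table. It was in 6 of the 11 promoters (54.5%) of the members that were on in iPS and off in pre-iPS cells, and in 20.9% of the 67 promoters of all tested genes of that class, these 11 included. Of the members on in both, 30.8% of 13 promoters had it. The shares were 25.0% of 8 for intermediate members and 30.0% of 10 for those not on in all iPS libraries. These classes rest on the levels by which the members were chosen, so nothing is read from the differences. The E2F-type motif was in 18 of 42 member promoters (42.9%) and in 33.3% of those of tested genes. The median observed-to-expected ratio of CpG was 0.68 in the members, 0.72 in tested genes and 0.38 in the whole table. These are matches of letters, not measured sites. A window of 80 bases upstream of the start is shown for those 6 genes, since they unite the off state in pre-iPS cells with the motif, and capitals mark each E-box. The windows lie at chr3:102936152-102936231 on the minus strand (*Sycp1*), chr10:88459486-88459565 on the plus strand (*Sycp3*), chr3:95559583-95559662 on the plus strand (*Hormad1*), chr1:166238915-166238994 on the minus strand (*Mael*), chr6:49395447-49395526 on the plus strand (*Stk31*) and chrX:134476497-134476576 on the minus strand (*Taf7l*). Each is written 5′ to 3′ on the strand of the gene.
Sycp1: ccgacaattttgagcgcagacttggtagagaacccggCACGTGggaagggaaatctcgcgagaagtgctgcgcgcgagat
Sycp3: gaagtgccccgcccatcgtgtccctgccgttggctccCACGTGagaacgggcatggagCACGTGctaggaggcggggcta
Hormad1: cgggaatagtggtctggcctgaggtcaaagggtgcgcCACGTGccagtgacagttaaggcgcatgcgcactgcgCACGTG
Mael: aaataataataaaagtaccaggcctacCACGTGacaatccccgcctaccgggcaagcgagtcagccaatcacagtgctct
Stk31: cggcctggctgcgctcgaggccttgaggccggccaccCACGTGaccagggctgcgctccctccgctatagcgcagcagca
Taf7l: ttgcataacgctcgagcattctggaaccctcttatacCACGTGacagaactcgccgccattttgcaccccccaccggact

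**Figure D1:**
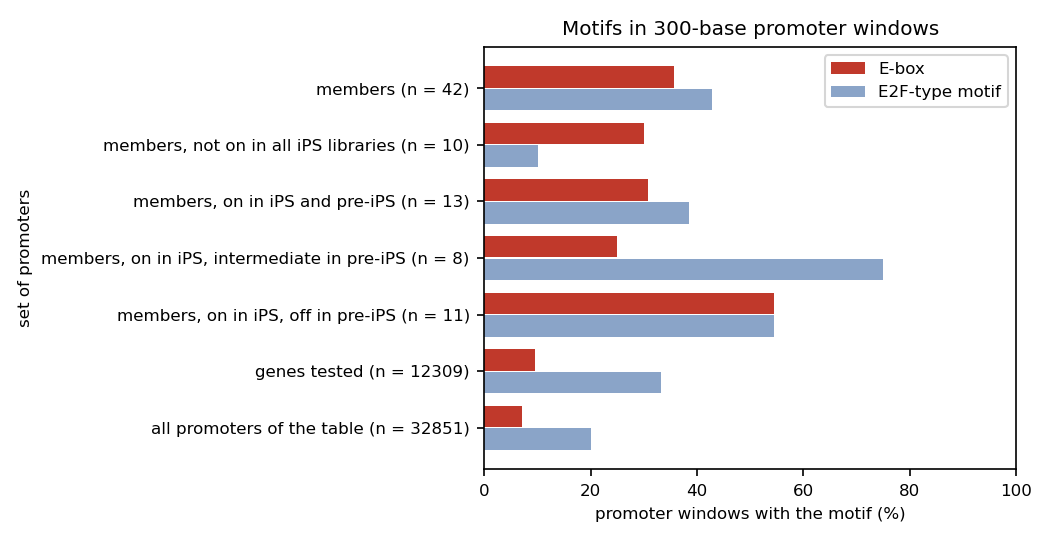
The share of 300-base promoter windows (x axis, %) that hold the E-box (red) or the E2F-type motif (blue), for the members, their classes and 2 backgrounds (y axis, with the number of promoters). The E-box bar is 35.7% for the members and 9.62% for tested genes.

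A gene was called on in iPS cells at a value of at least 50 in all 6 iPS libraries, and off in pre-iPS cells at under 10 in both libraries. Of the 47 genes, 35 were on in iPS cells (76.4% of the 17075 tested genes were), 11 of them were off in pre-iPS cells, 9 were intermediate and 15 were at 50 or more in both pre-iPS libraries too. The remaining 12 were under 50 in at least 1 iPS library. The 11 genes on in iPS and off in pre-iPS cells were *Sycp1*, *Sycp3*, *Hormad1*, *Mael*, *Stk31*, *Dazl*, *Taf7l*, *Usp26*, *1700013H16Rik*, *Tuba3a* and *Rpl10l*. Among tested genes 0.615% had this pattern, but the genes were chosen with it in view and nothing is read from the difference. Just inside the limits were *Sycp3* at 7.14 in pre-iPS cells at passage 5 and *Hormad1* at 52.4 in clone 1 at passage 25. Just outside were *Dmc1*, at 11.5 in pre-iPS cells at passage 25, and *Sycp2*, at 49.6 in clone 2 at passage 5. In 22 of the 47 genes (4.2% of tested genes) the pre-iPS mean was under 10% of the iPS mean. In MEF, 32 of the 47 genes were under 10 in both libraries, 10 of the 11 included. *Sycp3*, at 34.0 and 25.4, was the other. The summed level of 8 naive pluripotency genes was 11300 and 11600 in pre-iPS cells and 16900 to 66800 in iPS cells, and its part in these levels was not tested. The sum joins unlike genes. Their differences between pre-iPS and iPS cells ran from 0.02 (*Zfp42*) to -7.11 (*Dppa3*, log2). *Tfcp2l1* was at -1.23, *Nanog* at -3.74 and *Esrrb* at -6.78.

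**Figure D2:**
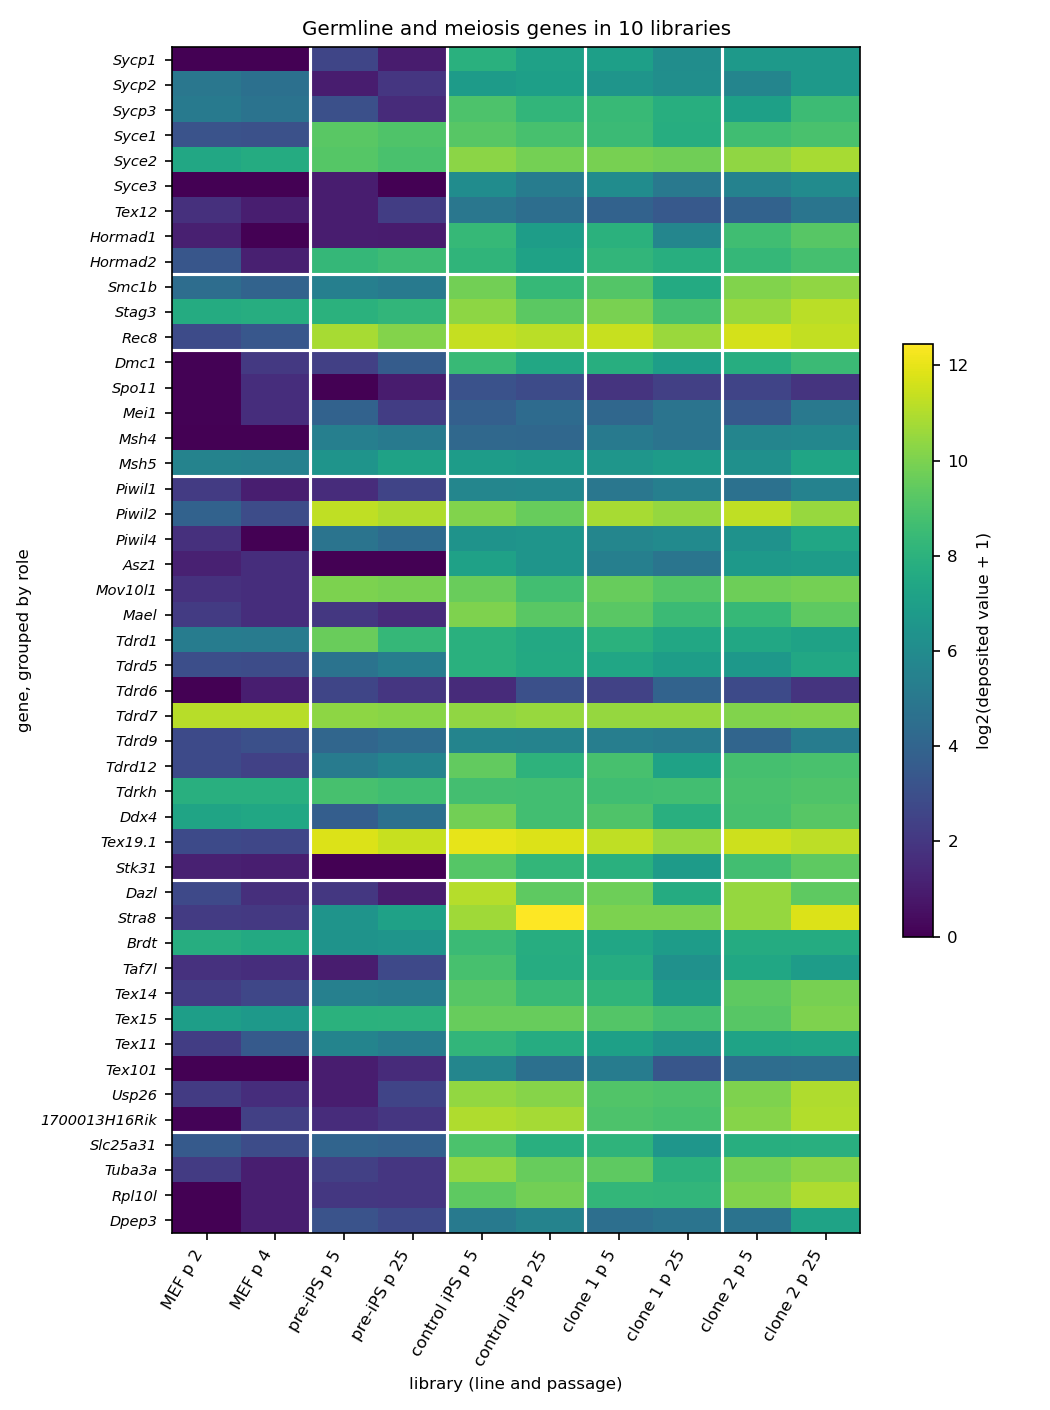
Values of the 47 genes (y axis, white lines between roles) in the 10 libraries (x axis, line and passage), as log2(deposited value + 1) in colour. Blocks of dark cells in pre-iPS and MEF columns stand beside bright iPS columns, as for *Dazl* (0.957 and 3.06 in pre-iPS, 204 to 2130 in iPS), while *Tex19.1* and *Rec8* are bright in both.

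In all lists of 6 iPS values that follow, the order is control, clone 1 and clone 2, each at passage 5 and then 25. The synaptonemal complex genes fell into 3 groups. *Sycp1* encodes the transverse filament, the teeth of the zip, and lies at chr3:102818499-102936100 (GRCm38, minus strand). Its values were 236, 141, 130, 67.7, 107 and 105 in iPS cells, 5.1 and 0.957 in pre-iPS cells, and it was listed at 0 in both MEF libraries. *Sycp3*, an axial element of the chromosomes at chr10:88459569-88473236, was at 501, 293, 338, 224, 136 and 376 in iPS cells and at 7.14 and 1.92 in pre-iPS cells. *Hormad1* encodes an axis protein that marks chromosomes not yet paired. It had 320, 120, 246, 52.4, 398 and 588 in iPS cells against 1.02 and 0.957 in pre-iPS cells, an iPS mean 290.0 times that of pre-iPS. *Hormad1* also had the widest spread over iPS libraries among the members, 11.2-fold. Of its exonic 50-base stretches 22.9% recur in other genes, pseudogenes among them, so its reads are less certain.

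Their partners differed among themselves. *Sycp2*, *Syce3* and *Tex12* were also under 10 in both pre-iPS libraries, but under 50 in at least 1 iPS library. *Sycp2*, which pairs with *Sycp3* in the axis, was at 49.6 to 130 in iPS cells and 1.02 and 2.88 in pre-iPS cells. The central element gene *Syce3* was at 31.8 to 64.8 in iPS cells and at 1.02 and 0 in pre-iPS cells. *Tex12*, another central element gene, stayed at 10.3 to 30.0 in iPS cells. *Syce1*, also of the central element, was as high in pre-iPS cells (613 and 518) as in iPS cells (214 to 589), and *Hormad2* was at 310 and 377 against 142 to 443. *Syce2* lay between, at 570 and 464 in pre-iPS cells and 872 to 1810 in iPS cells, and was at 178 and 205 in MEF. Pre-iPS cells thus held RNA for some parts of the complex and nearly none for others.

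The 3 meiotic cohesin genes were on in each iPS library. *Rec8*, the meiotic kleisin that closes the ring, had 1560 to 3280 in iPS cells and 1800 and 1130 in pre-iPS cells. *Stag3* ranged from 455 to 2300 in iPS cells, with 244 and 290 in pre-iPS libraries and 203 and 217 in MEF. *Smc1b*, the meiotic form of an SMC arm of the ring, had 902, 330, 554, 196, 1110 and 1330 in iPS cells and 40.8 and 32.6 in pre-iPS cells. Per kilobase of exon the iPS means were 855, 209 and 182 for *Rec8*, *Stag3* and *Smc1b*.

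Of 5 recombination genes, 3 were not on in all iPS libraries. *Spo11*, which makes the meiotic breaks, was at 2.65 to 7.73 in iPS cells and did not pass the filter. *Mei1*, needed for those breaks, was at 9.92 to 31.4. *Dmc1*, the recombinase that finds the homologous strand, was on, with 339, 179, 224, 125, 215 and 360 in iPS cells and 4.08 and 11.5 in pre-iPS cells. *Msh4* and *Msh5* form the pair that stabilises crossovers. *Msh5* was at 76.4 to 161 in iPS cells, 87.7 and 143 in pre-iPS libraries and 47.2 and 43.3 in MEF, so it was not restricted to reprogrammed lines.

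Among 16 piRNA pathway genes, 2 were on in iPS and off in pre-iPS cells. *Mael*, a piRNA factor with an HMG domain, had 1060, 617, 614, 358, 325 and 666 in iPS cells against 3.06 and 1.92 in pre-iPS cells. *Stk31*, a Tudor-domain kinase-like gene, had 575, 307, 241, 115, 414 and 657 and both of its pre-iPS values were 0. Against a floor of 3 reads per library, its iPS mean was at least 130.0-fold higher. *Asz1*, a mitochondrial scaffold of the pathway, likewise had 0 in each, and its iPS values of 141, 90.7, 40.8, 27.7, 106 and 116 put it outside the class through clone 1 alone. Its mean was at least 29.4-fold higher in iPS cells.

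*Ddx4*, the Vasa helicase of germ granules, was at 884, 410, 517, 232, 452 and 599 in iPS cells and only 12.2 and 23.0 in pre-iPS cells, lower than the 156 and 169 of MEF. The Tudor genes *Tdrd12* (35.7 and 48.0 in pre-iPS, 145 to 707 in iPS) and *Tdrd5* (25.5 and 37.4, 98.2 to 239), and *Piwil4* (a pre-iPS mean of 25.9% of the iPS mean), were also intermediate. *Piwil1*, the PIWI protein of later male meiosis, stayed at 23.8 to 53.2 in iPS cells. Other pathway genes were as high or higher before full reprogramming. *Piwil2*, a PIWI protein of fetal and adult germ cells, had 2460 and 2040 in pre-iPS cells and 757 to 2460 in iPS cells. *Mov10l1*, the helicase that feeds piRNA precursors, had 1030 and 958 against 418 to 919, and *Tex19.1* 3530 and 2760 against 1500 to 4080. *Tdrd1*, a germ granule scaffold, was at 788 and 315 in pre-iPS cells, above each iPS library (144 to 244). *Tdrd7* (2260 and 2250 in MEF, 1100 to 1510 in iPS cells) and *Tdrkh* (233 and 235, 395 to 521) were on in every line. *Tdrd9* reached 15.9 to 48.3 and *Tdrd6* 1.93 to 14.4 in iPS cells.

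**Figure D3:**
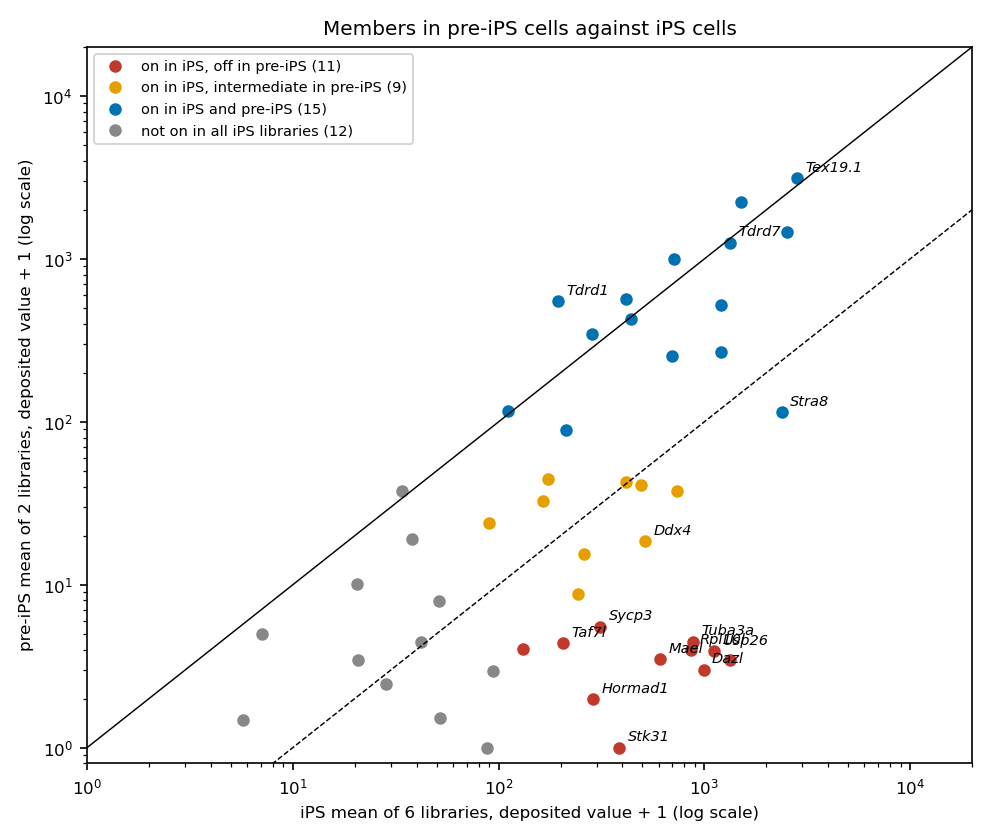
Each point is 1 of the 47 genes, by its mean in 6 iPS libraries (x axis) and in 2 pre-iPS libraries (y axis), both as deposited value + 1 on log scales. Colours give the class. The solid line marks equal levels and the dashed line 10% of the iPS level. The 11 red genes lie at the bottom, and *Tdrd1* lies above the solid line.

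The germ cell regulators held 4 of the 11. *Dazl*, an RNA-binding protein that lets germ cells enter gametogenesis, lies at chr17:50279395-50293636. Its values were 2130, 657, 851, 204, 1440 and 668 in iPS cells and 3.06 and 0.957 in pre-iPS cells, a ratio of means of 494. *Taf7l*, an X-linked form of a TFIID subunit, had 449, 209, 210, 77.0, 171 and 116 against 1.02 and 5.76. *Usp26*, an X-linked deubiquitinase gene, had 1370, 1180, 535, 508, 1050 and 2030 against 1.02 and 4.8. The X-linked *1700013H16Rik* had 2000, 1790, 507, 451, 1170 and 2060 against 2.04 and 2.88, a ratio of means of 541 and the largest among members above 0 in pre-iPS cells. Each of the 4 was under 10 in MEF.

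*Stra8*, which retinoic acid induces at meiotic entry, had an iPS mean of 2380 ± 1850 (SD, n = 6). Its values of 1630, 5640, 1020, 1020, 1420 and 3530 were highest in the control and clone 2 at passage 25. In pre-iPS cells it was at 87.7 and 141, 4.81% of the iPS mean, so it was reduced there but not off. *Tex14*, of the bridges between germ cells, had 599, 346, 282, 110, 656 and 964 in iPS cells and 41.8 and 38.4 in pre-iPS cells. The X-linked *Tex11* had 83.1 to 292 against 49.0 and 38.4. *Tex15* (429 to 1060 in iPS, 247 and 259 in pre-iPS, 124 and 101 in MEF) and the bromodomain gene *Brdt* (119 to 358, 84.7 and 90.3, 214 and 190) had RNA in all lines. *Tex101*, of a sperm surface protein, was at 9.24 to 52.2 in iPS cells.

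Of 4 germ cell forms of genes with a counterpart in body cells, *Tuba3a*, an alpha-tubulin, and *Rpl10l*, an intronless copy of the X-linked ribosomal gene *Rpl10*, were off in pre-iPS cells. *Tuba3a* had 1400, 746, 664, 256, 938 and 1270 in iPS cells and 4.08 and 2.88 in pre-iPS cells. *Rpl10l* (chr12:66283379-66284401) had 672, 884, 300, 295, 1100 and 1920 and 3.06 and 2.88. Reads of *Tuba3a* are uncertain, since 33.6% of its exonic 50-base stretches recur in other genes, chiefly *Tuba3b*, against 7.6% for *Rpl10l*. *Slc25a31*, the germ cell ADP/ATP carrier, was intermediate (15.3 and 13.4 against 93.4 to 487), and *Dpep3*, a dipeptidase gene, was at 22.2 to 147 in iPS cells and 8.16 and 5.76 in pre-iPS cells.

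Whether deriving iPS cells with Netrin-1 changed these genes was asked by comparing both clones with the control line. The test was limma on log2(value + 1) with Benjamini-Hochberg adjustment over 17075 genes, and a gene was called at an adjusted p under 0.05 and a difference of at least 1. This main fit held 1 mean per line and no term for passage, which a replicate block, given below, adds. Of 45 members tested, 1 was called (background 2.11%). This was *Msh4*, at 17.4 and 16.7 in the control, 33.7 and 26.7 in clone 1 and 50.6 and 53.8 in clone 2. It was higher in all 4 Netrin-1 libraries, by 1.17 ± 0.26 (log2, SE; limma adjusted p = 0.0481). The SE pools the scatter of all 10 libraries, with MEF, where *Msh4* was 0 in both. With only the 6 iPS libraries in the fit *Msh4* was not called (limma adjusted p = 0.117). The median difference of the members was -0.50, and that of all tested genes -0.01, with 34 of 45 lower. The members' median was -0.19 without the control at passage 5, -0.31 without clone 2 at passage 5 and -0.22 without clone 1 at passage 25. With the passage as a replicate block 2 were called (3.3% of all tested genes), *Msh4* higher (1.17, adjusted p = 0.0325) and *1700013H16Rik* lower (-1.13, adjusted p = 0.0254). On recovered reads *1700013H16Rik* was the single call of edgeR (-1.11, adjusted p = 0.0432; 2.27% of tested genes called) and DESeq2 (-1.11, adjusted p = 0.000301; 2.99%), and *Msh4* missed the threshold in both (adjusted p 0.0537 and 0.0964). The *Msh4* call was lost when any single library was left out (limma adjusted p 0.068 to 0.216).

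In clone 1 against the control, limma called 0 of 45 members (background 1.41%), with 15 at an unadjusted p under 0.05. The share of all tested genes at that p was not counted, so nothing is read from the 15. On recovered reads edgeR called 3 (1.66% of tested genes) and DESeq2 5 (3.02%), and the replicate block called 5 (2.87%), all lower. Nearest to the threshold were *Asz1* (-1.72 ± 0.37, log2, SE; limma adjusted p = 0.0533) and *Tex19.1* (-0.99 ± 0.23; limma adjusted p = 0.0688). The block called *1700013H16Rik* (-1.98, adjusted p = 0.00865), *Rpl10l* (-1.37, 0.025), *Dazl* (-1.5, 0.0257), *Asz1* (-1.72, 0.0318) and *Tex11* (-1.21, 0.0368) by limma. The median of the members was -0.72, with 38 of 45 lower, and that of all tested genes -0.01. The members' median was -0.40 without the control at passage 5, -0.33 without clone 1 at passage 25 and -1.17 without clone 1 at passage 5. In 17 of the 35 members on in iPS cells both clone 1 libraries were below both control libraries (22.2% of the 13050 genes on in iPS cells were).

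Clone 2 against the control gave 1 called member (background 2.42%), *Msh4* again, higher by 1.56 ± 0.30 (log2, SE; limma adjusted p = 0.03). A fit of only the 6 iPS libraries did not make this call (limma adjusted p = 0.0877). This call was lost when any control or clone 2 library was left out (limma adjusted p 0.0893 to 0.139) and without either MEF library. The block (4.16% of tested genes called) added *Piwil2* (1.08, limma adjusted p = 0.00343), at 1090 and 757 in the control and 2460 and 1500 in clone 2. The median of the members was 0.01, with 22 lower and 23 higher. It was -0.33 without clone 2 at passage 25, -0.28 without the control at passage 25 and 0.26 without the control at passage 5.

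**Figure D4:**
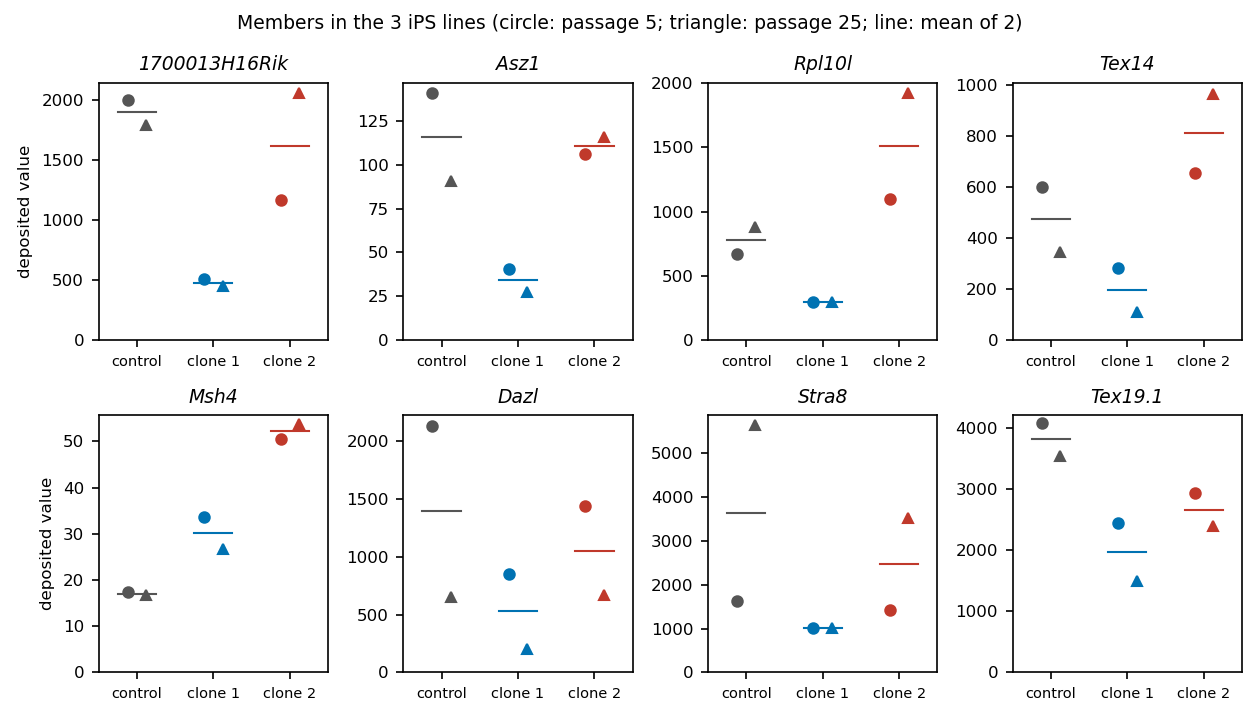
Deposited values (y axes, from 0) of 8 members in the 3 iPS lines (x axes), with passage 5 as circles, passage 25 as triangles and the mean of both as a line. The genes were chosen after their values were seen. Clone 1 sits below both other lines for *1700013H16Rik*, *Asz1*, *Rpl10l* and *Tex14*, while *Msh4* is lowest in the control (17.4 and 16.7).

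Between the clones, *Rpl10l* was called (background 0.966%), higher in clone 2 by 2.29 ± 0.39 (log2, SE; limma adjusted p = 0.0334), with 1100 and 1920 against 300 and 295. No library of one clone overlapped those of the other. A fit of only the 6 iPS libraries did not call *Rpl10l* (limma adjusted p = 0.0675). The call was lost when any control, pre-iPS or clone 1 library, or that of clone 2 at passage 25, was left out (limma adjusted p 0.0523 to 0.214). *Tex14* (2.17 ± 0.46; limma adjusted p = 0.0623) and *Asz1* (1.69 ± 0.37; limma adjusted p = 0.068) missed the threshold. With the replicate block 4 were called (1.92% of tested genes), *Rpl10l* (adjusted p = 0.00816), *1700013H16Rik* (1.70, 0.0209), *Tex14* (2.17, 0.0371) and *Asz1* (1.69, 0.0427) by limma, all higher in clone 2. From recovered reads edgeR called 3 (1.13% of tested genes) and DESeq2 8 (2.55%), all higher in clone 2. The median of the members was 0.54 and of all tested genes -0.01. Without clone 1 at passage 25 the members' median was 0.24, and without clone 1 at passage 5 it was 0.88. Clone 1 was the lowest of the 3 iPS lines in 27 of the 35 members on in iPS cells (77.1%), as in 32.6% of all genes on in iPS cells, and clone 2 was above it without overlap in 19 of 35 (22.1% of such genes). The summed level of the 8 naive pluripotency genes was also lowest in clone 1, at 27100 and 16900, with 53400 and 34800 in the control and 50600 and 66800 in clone 2. Its part in the order of the lines was not tested. The sex chromosomes differ between these clones, as given above. The median difference was 1.01 over the 4 X-linked members, 0.54 over the 41 tested autosomal members and 0.16 over 593 X-linked genes. The part of the sex chromosomes in the difference was not tested.

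The comparison of passages asked whether the genes drift with time in culture. In a fit of the 6 iPS libraries that blocked on the line, 1 of 45 members was called (background 0.937%). This was *Dazl*, with a difference of -1.62 ± 0.18 (log2, SE; limma adjusted p = 0.0226), lower in each line, from 2130 to 657 in the control, 851 to 204 in clone 1 and 1440 to 668 in clone 2. *Piwil2* was next (-0.53 ± 0.09; limma adjusted p = 0.0542). Among the 35 members on in iPS cells, 31 were lower at passage 25 in the control (median -0.74, log2) and 31 in clone 1 (median -0.70), but 7 in clone 2, where 28 were higher (median 0.42). The median over all genes on in iPS cells was -0.03 in each line. The naive pluripotency sums given above moved the same way, lower at passage 25 in the control and clone 1 and higher in clone 2, and their part in the change was not tested. Without either clone 2 library, which leaves the control and clone 1, 10 members were called (1.68 to 1.7% of tested genes), all lower at passage 25: *Dazl*, *Ddx4*, *Hormad1*, *Slc25a31*, *Smc1b*, *Stag3*, *Taf7l*, *Tdrd12*, *Tex14* and *Tuba3a*. The *Dazl* call was lost when any control or clone 1 library was left out (limma adjusted p 0.121 to 0.188).

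**Figure D5:**
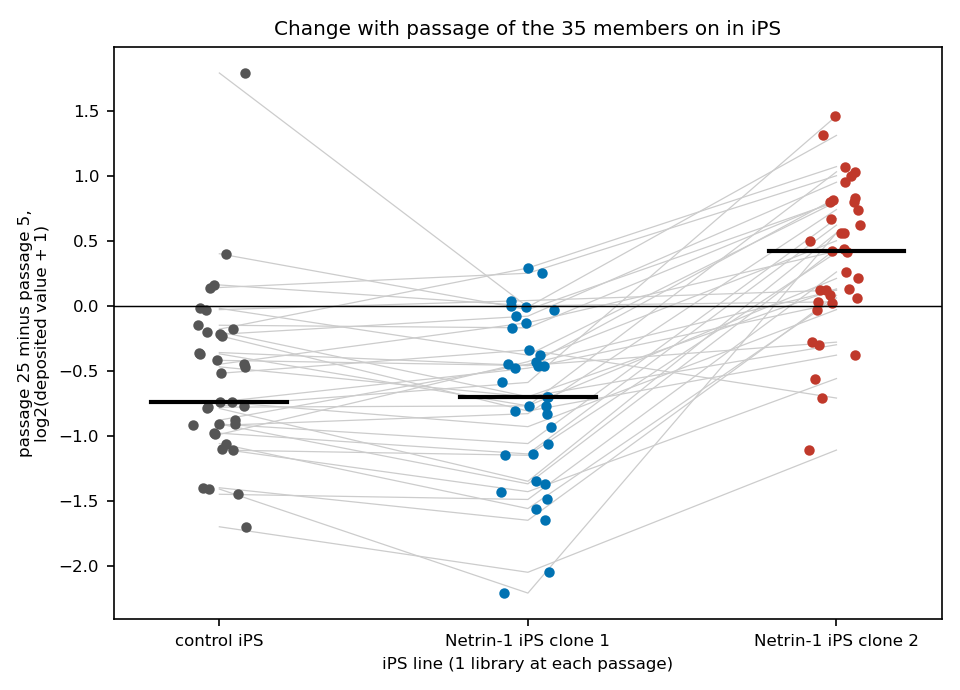
Passage 25 minus passage 5 (y axis, log2(deposited value + 1)) for the 35 members on in iPS cells, in each iPS line (x axis). Points are genes, grey lines join a gene across lines, black bars are medians. The medians are -0.74 (control), -0.70 (clone 1) and 0.42 (clone 2).

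The difference in passage change between clone 2 and the other iPS lines was tested after it was seen, as an interaction. By limma 0 members passed (0 of all 17075 genes too), with 29 of 45 at an unadjusted p under 0.05 (13.6% of all tested genes) and the smallest adjusted p at 0.124, for *Stag3*, *Mael*, *Smc1b* and *Sycp3*. The 29 were 13 with the 8 pre-iPS and iPS libraries and 19 with DESeq2. On recovered reads edgeR called 12 members (0.925% of all tested genes) and DESeq2 11 (0.668%), all higher in clone 2 at passage 25 relative to the other lines. They included *Stag3* (1.67, edgeR adjusted p = 0.00928), at 1280 and 649 in the control, 1000 and 455 in clone 1 and 1490 and 2300 in clone 2. *Sycp3* (2.14, edgeR adjusted p = 0.0136) and *Hormad1* (2.32, edgeR adjusted p = 0.0179) were others. Each line has 1 library at each passage, so this rests on 1 pair in clone 2. In the fit of the 6 iPS libraries, the scatter within a gene comes only from how the control and clone 1 changes differ. Clone 2 was picked from these same values, so the direction followed from that choice. The calls and p are thus a description, not support.

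Genes tied to the repression of the germline programme were then compared, 29 genes of PRC1.6, related chromatin regulators and DNA methylation. The list also holds *Tet1* and *Tet2*, which act on methylated cytosine and are not counted as repressors here. Against iPS cells, 5 were lower in pre-iPS cells and 0 higher (11.6% of tested genes were lower). These were *Dnmt3l*, the cofactor of new DNA methylation, with 29.6 and 17.3 in pre-iPS and 1660 to 9250 in iPS cells (-7.55 ± 0.55, log2, SE; limma adjusted p = 2.71e-05), the DNA methyltransferase genes *Dnmt3b* (-2.72 ± 0.14; limma adjusted p = 5.3e-06) and *Dnmt3a* (-1.32 ± 0.15; 0.000257), *Tet1*, which oxidises methylated cytosine (-2.02 ± 0.25; 0.000475), and the remodeller *Hells* (-1.24 ± 0.11; 6.36e-05). Genes of DNA methylation that did not pass both thresholds were *Dnmt1* (0.03), *Uhrf1* (-0.34) and *Tet2* (0.48). At the adjusted p alone, 13 genes of the list were lower and 2 higher. The PRC1.6 subunits *Rybp* (-0.92 ± 0.07, limma adjusted p = 2.62e-05) and *L3mbtl2* (-0.50 ± 0.07, limma adjusted p = 0.00108) were among those short of the difference of 1. *Pcgf6*, at 1500 and 1570 in pre-iPS cells, was below each iPS library (1880 to 2320). *Ring1* of the same list went the other way, at 1310 and 1010 in pre-iPS cells and 619 to 950 in iPS cells. *Mga* was at 6250 and 6100 in pre-iPS cells and 5790 to 8630 in iPS cells, and *E2f6* at 1850 and 1650 and 1310 to 1930. The median difference of the list was -0.16, against 0.00 for all tested genes. Against MEF, *Pcgf6* (1.56 ± 0.10; limma adjusted p = 2.08e-06) and *L3mbtl2* (1.45 ± 0.09; 1.6e-06) were higher in pre-iPS cells, as were 7 others (22.4% of tested genes were higher). Between iPS lines 0 of 29 were called by limma, and with passage *Dnmt3l* was lower (-1.42 ± 0.21; limma adjusted p = 0.039).

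Other germline genes were kept in lists of their own. Of 22 further meiosis genes 13 were listed, and 9 of these were at 50 or more in all iPS and pre-iPS libraries. Of 12 further piRNA genes 7 were of that kind, and of 13 germ cell specification genes 9. *Fkbp6*, a co-chaperone of the pathway, was on in iPS (147 to 562) and off in pre-iPS cells (4.08 and 5.76), the single gene of its list to be so. *Dppa3*, of primordial germ cells and the egg, was the single one of the germ cell specification list and had 436 to 1650 and 8.16 and 4.8. *Sohlh2*, a transcription factor of early germ cells, had 564 to 2570 in iPS cells and 14.3 and 12.5 in pre-iPS cells. *Tex19.2*, the paralog next to *Tex19.1*, went the other way, with 874 and 697 in pre-iPS and 42.1 to 116 in iPS cells. These 4 were chosen after their values were seen. Of 12 spermatid genes 6 were listed and 5 of them were not on in iPS cells, and of 14 oocyte genes 12 were listed and 11 were not. In the 5 tested comparisons 1 gene of these lists was called, *Nanos3*, a germ cell survival factor, higher in clone 2 than in the control (36.7 and 43.9 against 12.6 and 14.6; 1.5 ± 0.32, log2, SE; limma adjusted p = 0.0406).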

How the data were processed

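Polyadenylated RNA of 10 libraries was sequenced as 50-base single reads. The authors deposited 1 table of signal values, edgeR pseudo-counts scaled to a common library size. Per the labels they used CASAVA 1.8.2, FastQC, TopHat2 2.0.8b, HTSeq 0.5.3p9 and edgeR on mm10. The kit does not mark strand, and the strand setting of the counting is not given in the sources used here, so genes with an exon of another gene on the opposite strand (*Sycp3*, *Tdrkh*, *Piwil4*, *Tdrd5*, *Tuba3a*, *Dpep3* and *Msh4*) can hold its reads. Whole reads were recovered for every value within 0.001 of the deposited unit, with 38110410 to 52946856 reads per library, so a level of 1 to 3 reads carries large counting error. Where values of 0 were compared, a floor of 3 reads per library was used.

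The 17075 genes that reached a value of 10 in 2 or more libraries were fitted with limma 3.58.1 in R 4.3.3 (eBayes with a trend) on log2(value + 1), 1 mean per line over 10 libraries. This understates the change of low genes. Alternatives were pseudocounts of 5 and 0.5, other filters, quantile normalization, the adjusted p alone, edgeR 4.0.16 and DESeq2 1.42.0 on recovered reads, fewer libraries, the passage block and leaving out each library. Deviations of libraries from their line means correlated by passage number in each of the 6 pairs of pre-iPS and iPS lines (0.235 to 0.504), so the numbers pair them. The main fit has no term for passage, so its line comparisons leave this pairing out. The passage block keeps it, and called 5 members in clone 1 against the control and 4 between the clones. The fits were tested on simulated data for 17075 genes. A log2 change of 1 was called in 43.3% of changed genes for both clones against the control, 47.8% between the clones and 53.7% for passage. A change of 2 was called in 100%. The simulated reads had the same dispersion in all genes, no further scatter between lines or passages, and changes only in genes of higher mean. Real genes can vary more, so a change near 2 can be missed. *1700013H16Rik*, at -1.98 ± 0.62 (log2, SE) in clone 1 against the control, was not called by limma.

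The 47 members, roles and lists were chosen with earlier results of these data known. All members could be named. In each main limma test each called member was named. Members called only under an alternative, and called genes of other lists, were named in part. Gene positions are from GENCODE M21 (GRCm38). Lists of trophoblast, primitive endoderm, two-cell-like, testis somatic, naive pluripotency and fibroblast markers were also examined.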

Additional observations from a re-analysis of the deposited data

Results flagged for a closer look

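In 92 sets of values (members over the 6 iPS libraries or the 4 Netrin-1 libraries), 6 had 1 library far from the rest. Chance flags about 1 in 20 groups, the sets share libraries, and no cause was tested. *Dpep3* was at 147 in clone 2 at passage 25, against 22.2 to 45.9 in the other iPS libraries, and stood apart in both sets. *Piwil4* (163 against 51.5 to 90.7) and *Stra8* (3530 against 1020 to 1420 in the other Netrin-1 libraries) were high in the same library. *Taf7l* was at 449 in the control at passage 5, against 77.0 to 210 in the others, and *Tdrd12* was at 145 in clone 1 at passage 25, against 444 to 470 in the other Netrin-1 libraries.

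The change with passage differed in sign between the lines, and clone 2 was set apart after these values were seen. Of the 35 members on in iPS cells, 22 (62.9%) were higher at passage 25 in clone 2 and lower in both the control and clone 1, a pattern of 1692 of 13050 genes on in iPS cells (13.0%). By limma the difference did not pass for any gene, and edgeR and DESeq2 called 12 and 11 members.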

How the results depend on the processing

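The 11 members on in iPS and off in pre-iPS cells numbered 9 to 12, and the 22 under 10% of the iPS mean 18 to 25, under all their alternatives. Among the 29 genes of PRC1.6, chromatin regulators and DNA methylation, *Tet1* included, the count of 5 lower in pre-iPS cells was 5 to 6. With the adjusted p alone 15 passed, 13 lower and 2 higher. Counts of called members were less stable, and the cause was not tested. The share of all tested genes called moved with the setting too. Fits without single libraries aside, it was 0.785 to 4.08% for both clones against the control. With clone 1 against the control it was 0.234 to 3.02%, and with clone 2 0.773 to 4.16%. It was 0.0703 to 2.55% between the clones and 0 to 2.61% for passage. The highest shares came with DESeq2, the replicate block or the adjusted p alone. For both clones against the control (1 called) the count was 0 with a pseudocount of 0.5, no filter, a mean of at least 50 or only iPS libraries, 2 with the replicate block and 0 without any one library. It stayed 1 with edgeR and DESeq2, but of *1700013H16Rik* lower in place of *Msh4* higher. For clone 1 against the control (0 called) it was 3 with a pseudocount of 5, quantile normalization or edgeR, 5 with DESeq2 or the replicate block, and 0 to 1 without single libraries. For clone 2 against the control (1) it was 0 with a mean of at least 50 or only iPS libraries, 2 with DESeq2 or the replicate block, and 0 to 1 without single libraries. Between the clones (1) it was 4 with a pseudocount of 5 or the replicate block, 3 with quantile normalization or edgeR, 8 with DESeq2, 0 with a pseudocount of 0.5 or only iPS libraries, and 0 to 2 without single libraries. For passage (1) it was 2 with edgeR or DESeq2, 0 with no block for the line, and 0 to 10 without single libraries. The interaction of clone 2, added after seeing the data (0), had 11 with a mean of at least 50, 12 with edgeR and 11 with DESeq2. The direction of *Msh4*, *Rpl10l* and *Dazl* was the same under every alternative that fitted them. *Msh4* did not pass the filter of a mean of at least 50, so the counts of 0 there are no retest of it. With 2 libraries per line, changes near 2-fold were often missed.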

Other observations

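Among genes that mark other states, 6 of 8 naive pluripotency genes were higher in clone 2 than in clone 1 (median 1.63, log2, against -0.01 for all tested genes; 0.714% of tested genes were called higher). *Zfp42* (2.27 ± 0.27, log2, SE; limma adjusted p = 0.0121), *Tbx3* (1.67 ± 0.20; 0.0121), *Nanog* (1.37 ± 0.20; 0.0221) and *Klf2* (1.69 ± 0.27; 0.0294) were among them. Genes that mark the two-cell embryo were lower in the Netrin-1-derived lines than in the control, in 4 of 8 tested (*Zscan4d*, -1.89 ± 0.26, limma adjusted p = 0.00904; *Zscan4c*, -1.77 ± 0.22, 0.00532; *Tcstv3*, -1.79 ± 0.31, 0.0192; *Zscan4e*, -1.70 ± 0.35, 0.0364), with 1.12% of tested genes lower. The *Zscan4* genes are near-identical copies, so their reads are uncertain. With passage, *Krt7* (-1.87 ± 0.08; limma adjusted p = 0.00263) and *Eomes* (-1.12 ± 0.17; 0.0414) of the trophoblast list were lower, 2 of 6 tested, with 0.808% of tested genes lower. *Tfap2a* of that list went the other way (0.19) and was not called. *Krt7* is not particular to trophoblast here, since in MEF it was near its iPS level (-0.51, log2, MEF against iPS). Primitive endoderm, testis somatic and fibroblast marker lists had 0 calls by limma in the 5 comparisons.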
